A study of Mus musculus with 2 samples.

Results

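The mitochondrial carriers encoded by the Slc25 genes, together with Ucp1, Ucp2 and Ucp3, were examined in RNA-seq data from mouse heart. The members were all gene symbols that begin with Slc25a plus the 3 uncoupling protein symbols, which gave 47 of the 22882 symbols in the data. Both groups were 23 day old C57BL6/J mice of mixed sex on no treatment. The control group carried loxP-flanked Med1 alleles (Med1fl/fl), and the csMed1-/- group carried the same alleles plus a Cre transgene driven by the α-MyHC promoter, so Med1, a subunit of the Mediator complex, was deleted in cardiomyocytes and not in the other cells of the heart. RNA of 5 hearts was pooled per genotype and sequenced as 1 library. There are therefore no replicates, no error can be attached to any value, and the genotypes were set side by side without a test. In whole heart RNA, fewer cells of a type and less RNA per cell cannot be told apart.

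Mitochondrial carriers are small proteins of the inner mitochondrial membrane, built from a repeated membrane-spanning module, that exchange nucleotides, phosphate, carboxylates, amino acids, cofactors and metal ions between the cytosol and the matrix. In the heart the best known are the ADP/ATP carrier and the phosphate carrier, which bring ADP and phosphate to ATP synthase and return ATP to the myofibrils. Other carriers pass reducing equivalents (the malate-aspartate shuttle) and fatty acids (the carnitine shuttle) into the matrix, and the uncoupling proteins are relatives that have been linked to proton leak or metabolite exchange.

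Expression was given as FPKM, fragments scaled by transcript length and by library size, usually the number of mapped fragments. This allows levels of different genes to be compared. The library scaling used here is not given. The summed FPKM was 780366 in the control and 716365 in the csMed1-/- library. Med1 was at 3.38 FPKM in control heart and 0.412 FPKM in csMed1-/- heart. Read counts are not given, so the depth behind a value is unknown, but among very low values the step of 1 read was smaller in csMed1-/- heart, as it would be at 1.39 times the depth of control if values were scaled to mapped fragments alone. A value of 0 did not always mean absence: 6 genes were listed at 0 in control and at 100 FPKM or more in csMed1-/- heart, the cardiac actin gene Actc1 and the myoglobin gene Mb among them, and 6 were listed the other way round.

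Of the 47 carrier genes, 34 had a value above 0 in each library and reached 1 FPKM in one or both. Of these, 13 were lower and 6 were higher in csMed1-/- heart by more than 2-fold, the threshold used throughout, and 15 lay within 2-fold. Among all 10489 genes that met the same criteria, 31.5% were past 2-fold, 18.0% lower and 13.6% higher, whereas among the carriers the shares were 55.9%, 38.2% and 17.6%. The carriers had a median log2 ratio of csMed1-/- to control FPKM of -0.49 with quartiles of -1.36 and 0.29, and all genes had a median of -0.07 with quartiles of -0.72 and 0.55. Only Slc25a13 and Slc25a4 were past 4-fold, both lower. That is 5.88% of the carriers, whereas 5.14% of all genes were lower past 4-fold and 9.46% were past it in either direction. Slc25a14, Slc25a15 and Slc25a37 met the criteria through their higher library alone, and the other 31 were at 1 FPKM or more in both.

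**Figure D1:**
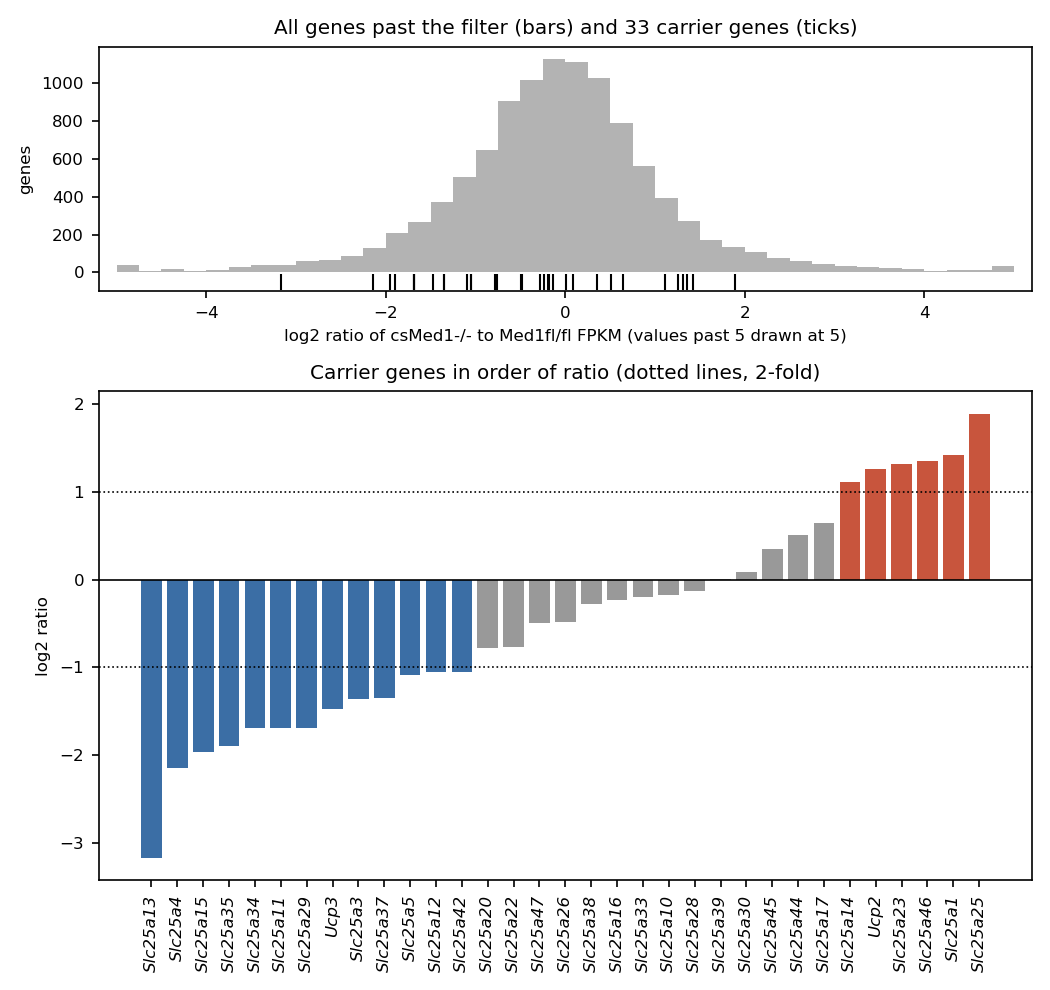
The upper panel shows the number of genes (vertical axis) by log2 ratio of csMed1-/- to control FPKM for all 10489 genes, with 33 of the 34 carrier genes as ticks below the bars. The lower panel gives each carrier's log2 ratio as a bar, blue when lower and red when higher by more than 2-fold (dotted lines), from -3.17 for Slc25a13 to 1.89 for Slc25a25.

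The abundant carriers were mostly on the lower side. Of the 9 members at 100 FPKM or more in control, 6 were lower past 2-fold (Slc25a4, Slc25a3, Slc25a5, Slc25a11, Slc25a12 and Slc25a34), Slc25a20 was lower and Slc25a39 was level within 2-fold, and Ucp2 was higher. The 7 past 2-fold were 77.8% of the 9. Among all 1223 genes that reached 100 FPKM in one or both libraries, 38.0% were past 2-fold, 18.7% were lower and 19.3% higher past 2-fold. The summed FPKM of the family was 13901 in control, or 1.78% of the library's total, and 4878 in csMed1-/- heart, or 0.681%. Slc25a4 alone made up 79.1% of that difference. Without Slc25a4 the family's sum was 4673 FPKM in control heart and 2791 FPKM in csMed1-/- heart, which is 0.597 of control in place of 0.351.

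**Figure D2:**
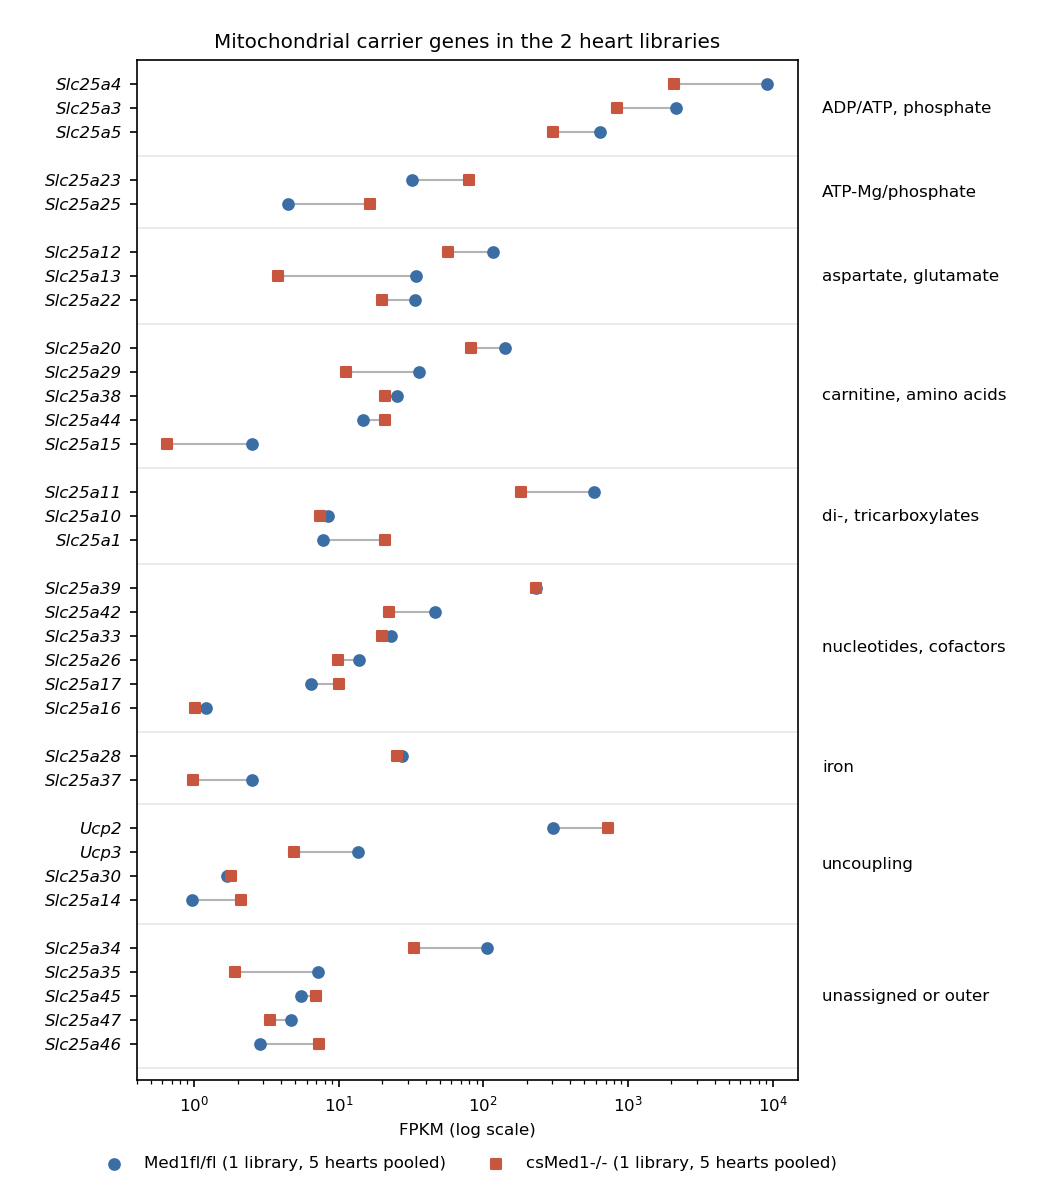
FPKM on a log scale (horizontal axis) of 33 of the 34 carrier genes (vertical axis), ordered by transported substrate, in the control library (blue circles) and the csMed1-/- library (red squares), with 1 library per genotype. The ADP/ATP and phosphate carriers lay to the left of control and both ATP-Mg/phosphate carriers to the right of it, and the symbols of Slc25a39 coincided.

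Members that bring ADP and phosphate to ATP synthase were lower in csMed1-/- heart. Slc25a4 encodes ADP/ATP carrier 1, the isoform of heart and skeletal muscle, and lies on chromosome 8 from 46206797 to 46211284 (minus strand, 4 exons, GENCODE M21 annotation of GRCm38, the assembly also called mm10). It was at 9228 FPKM in control, the fifth highest of all genes, and at 2087 FPKM in csMed1-/- heart, where it stood at rank 52. This was a 4.42-fold lower level (log2 ratio -2.14). Ranks and shares of the total follow the listed values, so a gene listed at 0 in one library does not count there. Actc1, for example, was listed at 0 in control and at 9189 FPKM in csMed1-/- heart. Slc25a5 (chromosome X, 36795651 to 36798807) encodes ADP/ATP carrier 2, which is found in most tissues, and was at 645 FPKM in control heart and 303 FPKM in csMed1-/- heart, 2.13-fold lower. Within a library, Slc25a4 was 14.3 times Slc25a5 in control and 6.89 times in csMed1-/- heart. Such ratios within a library do not depend on how the libraries were scaled to each other. Slc25a3 (chromosome 10, 91116574 to 91124059), the carrier of phosphate, which also brings copper into the matrix, was at 2164 and 845 FPKM, 2.56-fold lower. The fourth member of the group, Slc25a31, an ADP/ATP carrier of testis, was at 0.0409 FPKM in control heart and 0.0481 in csMed1-/- heart. All 3 expressed members of this group were thus past 2-fold on the lower side, except that Slc25a5 came within it, at a log2 ratio of -0.71, when ratios were centred by GC content. Their summed FPKM was 0.269 of control.

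The coding sequences of Slc25a4 and Slc25a5 have 78.6% identical bases in a global alignment, and their longest identical stretch has 20 bases, shorter than the 50 nt reads. It starts at base 322 of both coding sequences and is shown because it bears on whether reads of the isoforms could be exchanged:
Slc25a4 and Slc25a5: cagttctggcgctactttgc
No 50 base stretch of the Slc25a4 transcript occurred in a transcript of another gene. Of the 50 base stretches of Slc25a5, 46.6% also occurred in other annotated transcripts, those of Gm5560, Gm5529, Gm5256 and Slc25a5-ps being the most frequent, so the level of Slc25a5 is uncertain to the extent that such reads were divided.

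The genes that work beside these carriers are given for comparison. For each such list, here and below, the shares among all 10489 genes were 18.0% lower and 13.6% higher past 2-fold. Of 15 ATP synthase genes, 6 were lower (Atp5a1, Atp5c1, Atp5f1, Atp5g1, Atp5g3 and Atp5j) and none higher past 2-fold, with a median log2 ratio of -0.81, and their summed FPKM was 0.531 of control. The ratio was lowest for Atp5f1, a subunit of the stalk, at 813 and 199.5 FPKM. Atp5b, the most abundant, was at 6480 FPKM in control heart and 3538 FPKM in csMed1-/- heart. Slc25a4 was 1.42 times Atp5b in control and 0.590 times in csMed1-/- heart. Against Atp5a1, which encodes the other large catalytic-head subunit, it was 2.56 and 1.93 times. Of 4 mitochondrial creatine kinase and adenylate kinase genes past the filter, Ckmt2 (2096 and 890 FPKM) and Ak3 (55.7 and 15.2 FPKM) were lower past 2-fold and none was higher, and the median log2 ratio was -1.08. Slc25a4 was 4.40 times Ckmt2, the creatine kinase that uses the exported ATP, in control and 2.34 times in csMed1-/- heart.

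**Figure D3:**
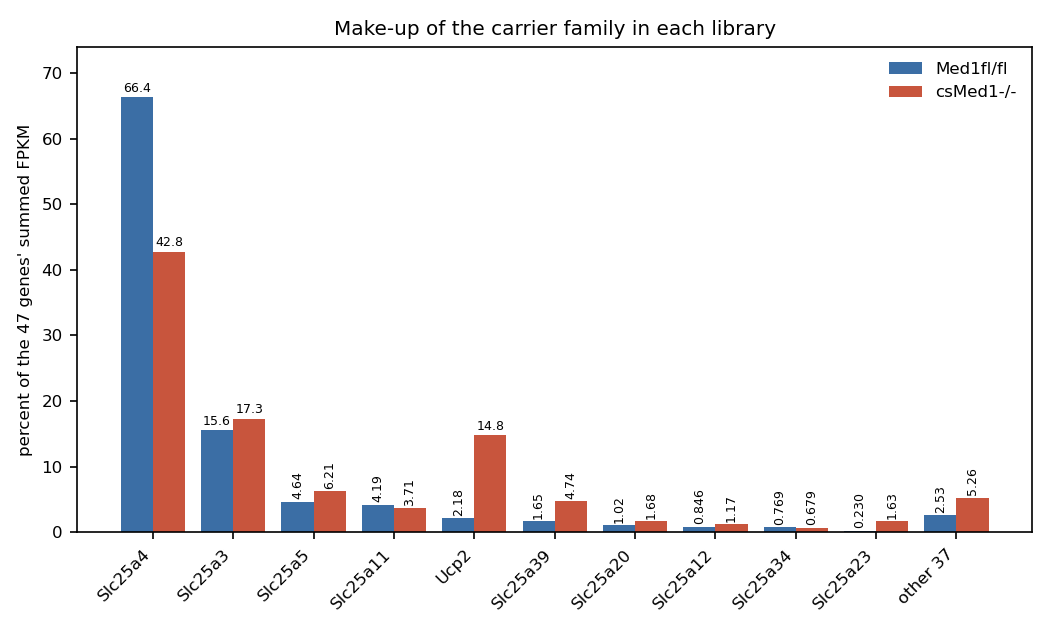
Percent of the summed FPKM of the 47 carrier genes (vertical axis, from 0) that each of 10 abundant genes and the 37 others took in the control (blue) and the csMed1-/- (red) library. Slc25a4 took 66.4% in control and 42.8% in csMed1-/- heart, and Ucp2 took 2.18% and 14.8%.

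The calcium-regulated carriers that exchange ATP-Mg for phosphate, and so set the size of the matrix adenine nucleotide pool, were on the higher side. Slc25a23 (chromosome 17, 57043711 to 57059863) was at 31.9 FPKM in control heart and 79.4 FPKM in csMed1-/- heart, 2.49-fold higher. Slc25a25 (chromosome 2, 32414487 to 32451445) was at 4.46 and 16.5 FPKM, 3.71-fold higher, the highest ratio of the family. Slc25a24 was low in both libraries (0.339 and 0.309 FPKM), and Slc25a41 was listed at 0 in both. Of this group's 4 members 2 met the criteria, and both were higher past 2-fold. In control Slc25a23 held rank 14 among the carriers, and in csMed1-/- heart rank 8. In Slc25a25, 9.46% of the 50 base stretches also occurred in Naif1, a gene that overlaps it on the opposite strand.

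The 2 carriers that exchange aspartate for glutamate in the malate-aspartate shuttle differed in their ratios. Slc25a13 (chromosome 6, 6041218 to 6217173), which encodes citrin, the isoform of liver, was at 34.3 FPKM in control heart and 3.81 FPKM in csMed1-/- heart, 8.99-fold lower and the lowest ratio of the family (log2 ratio -3.17). Slc25a12 (chromosome 2, 71271063 to 71367749), which encodes aralar, the main isoform of heart, muscle and brain, was at 118 and 56.8 FPKM, 2.07-fold lower and close to the threshold. Slc25a12 was 3.43 times Slc25a13 in control and 14.9 times in csMed1-/- heart. Their coding sequences share 72.3% of aligned bases and no 50 base stretch. Slc25a11 (chromosome 11, 70644196 to 70647479), the oxoglutarate carrier that completes the shuttle by exchanging malate, was at 583 and 181 FPKM, 3.22-fold lower. Of the shuttle's 4 enzymes, Mdh1 (1388 and 466 FPKM) was lower past 2-fold and none was higher. The other 3 were Got1 (722 and 476 FPKM), Got2 (1304 and 770 FPKM) and Mdh2 (2821 and 2354 FPKM), and the median log2 ratio of the 4 enzymes was -0.68. Slc25a13 stood at 0.188 and Slc25a12 at 0.818 of their control value when each was divided by Got2 of the same library. The glutamate carrier Slc25a22 was at 33.9 and 19.9 FPKM, within 2-fold, and its relative Slc25a18 was at 0.0396 and 0.0144 FPKM, a ratio that equals 0.507 of the step of 1 read, near that of 1 read against 2.

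**Figure D4:**
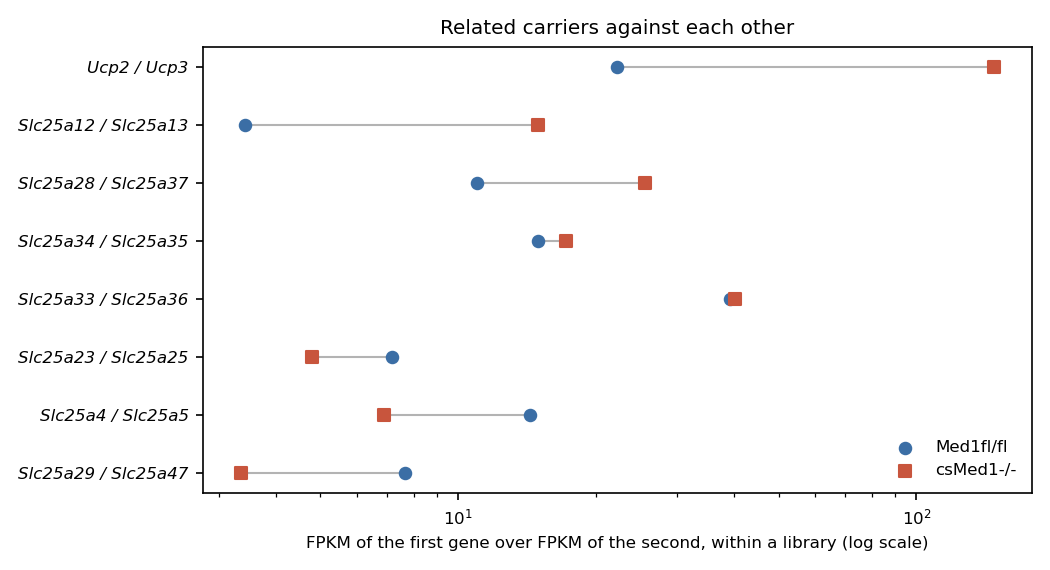
Ratio of the FPKM of 2 related carriers within a library (horizontal axis, log scale) for 8 pairs (vertical axis) in the control library (blue circles) and the csMed1-/- library (red squares). Ucp2 over Ucp3 went from 22.2 to 148, Slc25a12 over Slc25a13 from 3.43 to 14.9 and Slc25a4 over Slc25a5 from 14.3 to 6.89, whereas Slc25a33 over Slc25a36 was 39.2 and 40.2.

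Carriers of acylcarnitine and amino acids were lower past 2-fold or within it. Slc25a20, which carries acylcarnitines into the matrix for fatty acid oxidation, was at 141 FPKM in control heart and 82.1 FPKM in csMed1-/- heart, 1.72-fold lower and so within 2-fold. Cpt2 (234 and 110 FPKM) and Crat (610 and 255 FPKM), enzymes of the carnitine shuttle, were lower past 2-fold, Cpt1a (16.8 and 23.2 FPKM) was within it, and the median log2 ratio of these 3 was -1.09. Slc25a20 over Cpt2 was 1.24 times its control value. Slc25a29 (chromosome 12, 108825873 to 108835883), a carrier of basic amino acids, was at 36.0 and 11.2 FPKM, 3.22-fold lower. Slc25a15, the ornithine carrier of the urea cycle, was at 2.53 and 0.650 FPKM, 3.89-fold lower at a low level. Slc25a38, which supplies glycine for heme synthesis (25.5 and 21.0 FPKM), and Slc25a44, a carrier of branched-chain amino acids (14.7 and 21.0 FPKM), were within 2-fold. Slc25a2, a second ornithine carrier, was at 0.0375 FPKM in control and listed at 0 in csMed1-/- heart. Among the 5 expressed members of the group, 2 were lower and none higher past 2-fold.

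The carboxylate carriers lay on both sides of control. Slc25a1 (chromosome 16, 17925223 to 17928219), which exports citrate from the matrix, was at 7.83 FPKM in control heart and 20.9 FPKM in csMed1-/- heart, 2.68-fold higher, whereas Slc25a11 was lower as given above and Slc25a10, the dicarboxylate carrier, was at 8.38 and 7.41 FPKM. Slc25a21, an oxodicarboxylate carrier, was at 0.0124 and 0.0241 FPKM. Of 6 genes of citrate synthesis and use and of the acetyl-CoA carboxylases, which citrate activates, 4 were lower past 2-fold and none was higher, with a median log2 ratio of -1.12. Among the lower genes were Cs (1031 and 190 FPKM), Acacb (118 and 39.7 FPKM) and Aco1 (22.7 and 11.2 FPKM). Acly, which splits exported citrate in the cytosol, was at 13.6 and 16.0 FPKM, so Slc25a1 over Acly was 2.28 times its control value. Citrate synthase and its exporter thus lay on opposite sides of control.

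Carriers of nucleotides and cofactors were the most even group. Slc25a42, a carrier of coenzyme A, was at 46.0 FPKM in control heart and 22.3 FPKM in csMed1-/- heart, 2.07-fold lower and close to the threshold. The other 6 expressed members were within 2-fold. Slc25a39, which brings glutathione into mitochondria, was at 230 and 231 FPKM, a ratio of 1.01, and passed Slc25a11 to take rank 5 in the family in csMed1-/- heart. Slc25a33, a pyrimidine nucleotide carrier (22.9 and 20.0 FPKM), Slc25a26, which carries S-adenosylmethionine (13.9 and 9.95 FPKM), and Slc25a16 (1.20 and 1.02 FPKM) were lower, and the peroxisomal member Slc25a17 (6.39 and 9.99 FPKM) was higher. Slc25a32, Slc25a36 and Slc25a40 were under 1 FPKM in both libraries.

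The 2 mitoferrins, which bring iron into mitochondria for heme and iron-sulfur clusters, had different ratios. Slc25a28 (mitoferrin 2), the isoform of most tissues, was at 27.6 FPKM in control heart and 25.1 FPKM in csMed1-/- heart. Slc25a37 (mitoferrin 1), which is best known from red cell precursors, was at 2.51 and 0.985 FPKM, 2.55-fold lower at a low level. Slc25a28 was 11.0 times Slc25a37 in control and 25.5 times in csMed1-/- heart. Of 11 genes of iron-sulfur cluster and heme synthesis, 4 were lower (among them Isca1, Cpox and Alas1) and 1 was higher (Alas2, the erythroid form), with a median log2 ratio of -0.27. Isca1 was at 176 and 45.4 FPKM, Cpox at 6.34 and 2.36 FPKM, Alas1, the most abundant of the list in control, at 209 and 80.8 FPKM, and Alas2 at 35.8 and 82.1 FPKM. Of 9 erythroid markers 3 were matched, and none of the listed hemoglobin symbols was among them. The 2 markers that passed the filter, Alas2 and Slc4a1 (0.642 and 3.17 FPKM), were higher. Slc4a1 reached 1 FPKM in csMed1-/- heart alone and Slc25a37 in control alone, so each passed only through its higher library. The part of erythroid cells in the result was not tested.

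Ucp2 and Ucp3, neighbours on chromosome 7 with a gap of 6904 bases and on the same strand, lay on opposite sides of control. Ucp2 (100493337 to 100502020, plus strand) is expressed in many cell types, immune cells among them. It was at 302 FPKM in control heart and 723 FPKM in csMed1-/- heart, 2.39-fold higher, which took it from rank 5 to rank 3 in the family and from rank 390 to rank 190 among all genes. Ucp3 (100472990 to 100486432, plus strand), the form of skeletal muscle, heart and brown fat, was at 13.6 and 4.89 FPKM, 2.78-fold lower. Ucp2 was 22.2 times Ucp3 in control and 148 times in csMed1-/- heart. Their coding sequences have 75.8% identical aligned bases with a longest common stretch of 24. No 50 base stretch of Ucp3 occurred in another gene's transcripts, and 6.50% of those of Ucp2 also occurred in Dnajb13, which overlaps it on the opposite strand. Ucp1, the uncoupling protein of brown fat, was listed at 0 in both libraries. Of the more distant relatives, Slc25a14 was at 0.975 and 2.11 FPKM, 2.16-fold higher at a low level, Slc25a30 was at 1.70 and 1.81 FPKM, and Slc25a27 at 0.442 and 0.498 FPKM.

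Markers of other cells are given beside the uncoupling proteins. Their counts stand against 18.0% lower and 13.6% higher past 2-fold among all genes that met the criteria. Of 9 macrophage and leukocyte markers 8 were matched and 7 passed the filter, 1 of them higher (Cd14, 9.44 and 23.1 FPKM) and none lower past 2-fold, and their summed FPKM was 333 in control heart and 382 in csMed1-/- heart. Within 2-fold, C1qa (91.1 and 123 FPKM), C1qb (78.2 and 129 FPKM) and Cd68 (10.9 and 15.9 FPKM) were higher. Lyz2 (116 and 68.0 FPKM), Csf1r (24.3 and 21.3 FPKM) and Emr1 (3.33 and 1.77 FPKM) were lower within 2-fold. Ptprc did not pass the filter, at 0.0403 and 0.0147 FPKM, values too low to compare. Of 8 fibroblast markers 4 were higher and 1 was lower, with sums of 503 and 1193 FPKM. Of 7 endothelial markers 3 were lower and 1 was higher, with sums of 420 and 318 FPKM. Of 6 smooth muscle and pericyte markers 1 was lower and 2 were higher, with sums of 665 and 1087 FPKM, of which Cnn1 held 4.32 and 622 FPKM. Their part in the level of Ucp2 was not tested. Of 9 adipocyte markers, Lep, Cfd and Retn were listed at 0 in both libraries and Adipoq, Plin1 and Cidec at 0 in control and under 0.0101 FPKM in csMed1-/- heart, and only Cidea, which is also expressed in heart, passed the filter (37.6 and 81.4 FPKM). Of 10 cardiomyocyte markers 9 were matched and 7 passed the filter, 3 of them lower (Tnni3, Myl2 and Tnnt2) and none higher past 2-fold, with a median log2 ratio of -0.75. Within 2-fold, Tnnc1 (4647 and 5823 FPKM) and Actn2 (1286 and 1892 FPKM) were higher and Myl3 and Ttn lower. Actc1 (9189 FPKM in csMed1-/- heart) and Mb (1040 FPKM) did not pass because they were listed at 0 in control. With these included, the sums were 56311 and 37454 FPKM. Among 4 genes of proliferating cells only Cdk1 passed the filter, at 0.322 and 1.39 FPKM and so through the csMed1-/- library alone.

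Members without an agreed substrate included some of the larger differences. Slc25a34 (chromosome 4, 141618824 to 141623821) was at 107 FPKM in control heart and 33.1 FPKM in csMed1-/- heart, 3.23-fold lower, and its closest relative Slc25a35 (chromosome 11, 68968131 to 68974365) was at 7.17 and 1.93 FPKM, 3.72-fold lower. Slc25a34 over Slc25a35 was 14.9 in control heart and 17.2 in csMed1-/- heart, so the pair kept nearly the same proportion. Slc25a46, a protein of the outer membrane that takes part in mitochondrial dynamics, was at 2.86 and 7.30 FPKM, 2.55-fold higher. It was the only member on 2 rows of the data, at 1.93 and 6.25 FPKM on one and at 0.931 and 1.05 FPKM on the other, so the difference was in the first row only. Slc25a45 (5.46 and 6.96 FPKM) and Slc25a47 (4.71 and 3.33 FPKM) were within 2-fold. Slc25a47 lies 162 bases from Slc25a29 on the opposite strand, and Slc25a29 was 7.64 times Slc25a47 in control and 3.35 times in csMed1-/- heart. Slc25a43 was at 0.0471 and 0.0338 FPKM, a ratio at 0.996 of the step of 1 read, and Slc25a48 was listed at 0 in both.

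Sequence before the start site was compared because members on opposite sides of control include close relatives and neighbours. RefSeq promoter windows (GRCm38.p6) were available for 37 of the 47 members, and the 250 bases before each start were searched on both strands for 5 motifs. Where a member had several windows, a match in any of them was counted, for the members as for all 27025 genes with a window. For reference, the windows of Slc25a4 (chr8:46211063-46211312, minus strand), Slc25a13 (chr6:6217174-6217423, minus strand), Ucp3 (chr7:100472741-100472990, plus strand), Ucp2 (chr7:100493108-100493357, plus strand) and the 3 windows of Slc25a25 (chr2:32451471-32451720, chr2:32431152-32431401 and chr2:32424067-32424316, minus strand) are shown 5′ to 3′ with motif matches in capitals. They are the windows of the most abundant member, of the members with the lowest and highest ratio, and of the neighbouring pair:
Slc25a4: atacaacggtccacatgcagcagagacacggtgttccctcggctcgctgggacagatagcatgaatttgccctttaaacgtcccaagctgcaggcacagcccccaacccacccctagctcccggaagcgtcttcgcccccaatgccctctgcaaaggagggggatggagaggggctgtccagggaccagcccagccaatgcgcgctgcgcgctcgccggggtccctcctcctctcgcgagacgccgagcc
Slc25a13: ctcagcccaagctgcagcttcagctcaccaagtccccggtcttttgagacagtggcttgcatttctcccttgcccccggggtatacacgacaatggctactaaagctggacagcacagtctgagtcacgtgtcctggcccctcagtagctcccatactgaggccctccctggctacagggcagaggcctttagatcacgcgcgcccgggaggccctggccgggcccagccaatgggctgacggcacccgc
Ucp3: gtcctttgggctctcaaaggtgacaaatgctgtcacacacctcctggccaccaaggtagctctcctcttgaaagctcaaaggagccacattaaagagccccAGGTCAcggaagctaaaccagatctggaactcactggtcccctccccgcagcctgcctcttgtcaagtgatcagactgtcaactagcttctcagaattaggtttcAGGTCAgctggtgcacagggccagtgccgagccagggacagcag
Ucp2: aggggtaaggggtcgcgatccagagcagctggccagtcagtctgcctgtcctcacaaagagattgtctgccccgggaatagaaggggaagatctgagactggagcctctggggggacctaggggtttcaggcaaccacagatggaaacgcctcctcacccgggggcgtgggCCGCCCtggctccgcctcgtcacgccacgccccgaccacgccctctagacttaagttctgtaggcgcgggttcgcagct
Slc25a25 window 1: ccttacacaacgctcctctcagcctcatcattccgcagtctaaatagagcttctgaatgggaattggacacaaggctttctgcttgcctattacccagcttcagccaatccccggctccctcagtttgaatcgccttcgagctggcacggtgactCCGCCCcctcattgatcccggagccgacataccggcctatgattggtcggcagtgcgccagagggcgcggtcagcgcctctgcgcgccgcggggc
Slc25a25 window 2: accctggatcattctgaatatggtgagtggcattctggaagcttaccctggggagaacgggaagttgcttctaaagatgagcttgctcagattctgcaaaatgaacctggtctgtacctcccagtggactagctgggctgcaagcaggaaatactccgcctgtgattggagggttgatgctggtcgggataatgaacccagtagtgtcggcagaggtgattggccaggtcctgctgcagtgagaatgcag
Slc25a25 window 3: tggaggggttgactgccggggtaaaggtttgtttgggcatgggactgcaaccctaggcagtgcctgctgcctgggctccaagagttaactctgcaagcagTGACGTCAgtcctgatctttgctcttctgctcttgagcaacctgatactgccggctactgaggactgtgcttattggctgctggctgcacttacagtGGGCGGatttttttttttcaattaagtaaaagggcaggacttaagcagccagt
The nuclear receptor half-site AGGTCA, the core that PPAR, ERR and related receptors recognise, was found in 6 members, among them 2 of the 11 lower members with a window (Slc25a34 and Ucp3), in none of the 5 higher members, and in 15.8% of all genes with a window. Ucp3 held it at 2 places, 149 to 144 and 44 to 39 bases before the start. The extended site of the ERR receptors, TNAAGGTCA, which contains AGGTCA, was found in no member and in 1.30% of all genes. The NRF1 palindrome, GCGC on either side of 2 bases of any kind, was found in Slc25a3 and Slc25a31 and in 5.64% of all genes. The cAMP response element TGACGTCA was found in window 3 of Slc25a25, 150 to 143 bases before the start, in Slc25a36 and in 1.77% of all genes. The starts that follow windows 1, 2 and 3 of Slc25a25 lie 25, 18 and 61 bases from the nearest GENCODE transcript start of the gene, and window 2 held none of the 5 motifs. The GC box GGGCGG was found in 25 of the 37 members, 7 of the 11 lower, 5 of the 5 higher and 13 others, and in 35.4% of all genes. The shares of all genes include genes not expressed in heart and were not matched to the members by level or GC content. The windows of Slc25a4 and Slc25a13 held none of the 5. The RefSeq start that follows the Slc25a4 window lies 32 bases from the nearest GENCODE transcript start. Most of that window lies inside the gene's GENCODE span (46206797 to 46211284), so little of the sequence before the outermost start was searched.

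Other transporters and channels of the mitochondrial membranes are given as the family's surroundings. Of 19 that passed the filter, 10 were lower and 4 were higher past 2-fold, with a median log2 ratio of -1.21. The shares among all genes that met the criteria were 18.0% lower and 13.6% higher. The 3 porin genes of the outer membrane, Vdac1 (1052 and 368 FPKM), Vdac2 (329 and 143 FPKM) and Vdac3 (179 and 60.6 FPKM), were all lower. Of the subunits of the pyruvate carrier, Brp44 (now Mpc2) was at 364 and 101 FPKM and Brp44l (now Mpc1) at 645 and 348 FPKM. The ABC transporters Abcb8 (80.1 and 15.8 FPKM), Abcb6 (26.8 and 7.55 FPKM) and Abcb10 (19.6 and 6.09 FPKM) were lower. So were the cyclophilin Ppif (378 and 73.0 FPKM) and the sideroflexin Sfxn4 (1.96 and 0.386 FPKM), which passed the filter through control alone. Among the higher genes were Tspo (164 and 728 FPKM), Sfxn3 (9.98 and 30.3 FPKM) and the carrier relative Mtch1 (222 and 525 FPKM). The tenth lower gene was Mcart1, an earlier symbol of the NAD carrier Slc25a51, at 19.4 and 7.44 FPKM. It stood outside the 47 because the data use that symbol.

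Of 10 nuclear receptors and coactivators of mitochondrial genes, 8 passed the filter. Of these, 5 were lower past 2-fold (Ppara, Ppargc1a, Tfam, Ppargc1b and Esrra) and none was higher, with a median log2 ratio of -1.26. Among all genes that met the criteria, 18.0% were lower past 2-fold. Ppargc1a (4.41 and 0.953 FPKM) and Tfam (1.85 and 0.475 FPKM) passed the filter through control, their higher library, alone. Esrra, the most abundant of the list and a receptor of oxidative metabolism genes, was at 127 and 61.4 FPKM.

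Of the 13 carriers that did not meet the criteria, Ucp1, Slc25a41 and Slc25a48 were listed at 0 in both libraries and Slc25a2 in csMed1-/- heart only, which does not show that they were absent or low. The other 9 ran from 0.0124 (Slc25a21) to 0.584 FPKM (Slc25a36) in control and from 0.0144 (Slc25a18) to 0.498 FPKM (Slc25a27) in csMed1-/- heart. Transcripts of the 13 had a median GC content of 47.1%, and those of the 34 others 53.6%. Across the 44 members above 0 in control, GC content and control FPKM had a Spearman's rho of 0.49, a description of genes from the same library. Across the 34 expressed members GC content and log2 ratio had a rho of 0.11. Over the 9470 genes past the filter with a GC value this rho was 0.20, so ratios varied with GC content between the libraries. Centring within bins of GC content moved the log2 ratio of 27 of the 34 members by more than 0.1.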

How the data were processed

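RNA of 5 hearts per genotype was pooled by the authors, enriched for polyadenylated RNA and read as directional 50 nt single-end reads. The authors aligned reads to mm10 with TopHat 2.0.8b and used Cufflinks and Cuffdiff 2.1.1 with UCSC gene annotation to make the deposited FPKM, as the study's methods state. The submitters' processing notes also list other tools, STAR 2.4.0h and Bowtie2 among them, without their role, so a part of theirs in these values cannot be told. The library scaling used is not given in the sources used here. The values were used as deposited. Rows that share a symbol were summed (412 symbols of 23424 rows, 1 carrier among them). Genes with a value above 0 in each library that reached 1 FPKM in one or both were compared by their plain FPKM ratio, with a threshold of 2-fold that is not a test. No pseudocount was added. The calculation was tested on simulated data. The 47 members and the lists of partner genes and of cell type markers were chosen with earlier results of these data known. The 5 motifs and the pairs of related carriers were chosen after the members' values were seen. Values are given in full for members past 2-fold or at 10 FPKM or more and for their closest relatives. Within the lists of partner genes, genes past 2-fold and the most abundant gene are named. A few genes are counted but their values are not reported here. Positions, transcripts, GC content and shared 50 base stretches came from GENCODE M21 (GRCm38), joined by symbol, using the transcript with the longest coding sequence, and promoters from RefSeq. Protein sequences were not used here. The alternatives were pseudocounts of 0.1 and 1 FPKM, other filters, other scalings, the highest row per symbol and thresholds of 1.5-fold and 4-fold. Centring within 10 bins of GC content and counting Mcart1 and Mcart6 were added after seeing the data. Python 3.11.15 with numpy 2.4.6, pandas 2.3.3 and matplotlib 3.10.9 was used.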

Additional observations from a re-analysis of the deposited data

How the results depend on the processing

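The 13 lower and 6 higher carriers stayed within 1.5 times these counts under all alternatives run except the 4-fold threshold, which left 2 lower and 0 higher. The shares of all genes moved as well. Outside the 4-fold setting, the share lower ran from 12.3% with a pseudocount of 1 FPKM to 29.7% at 1.5-fold, and the share higher from 10.3% to 23.7%. At 1.5-fold, 16 carriers were lower and 7 higher. The median log2 ratio of -0.49 stayed negative and moved by more than 0.1 in 2 settings, to -0.23 when every carrier above 0 in both libraries was kept and to -0.78 with 10 FPKM or more in at least one. No carrier past 2-fold changed sign in any setting run, which carries no weight. Pseudocounts and filters cannot turn a sign, and the scalings and GC centring shifted ratios by too little to turn a 2-fold difference. Slc25a12 and Slc25a42 came inside 2-fold when ratios were centred on the median of all genes or scaled to the 75th percentile. Slc25a14 (log2 ratio 0.65) and Slc25a37 (-0.82) came inside it with a pseudocount of 1 FPKM. Centring within bins of GC content brought Slc25a5 (-0.71) and Slc25a12 (-0.71) inside 2-fold and gave 12 lower carriers in all. The sign of Slc25a39, which was level, turned when libraries were scaled without the 100 highest genes or centred by GC content. With Mcart1 and Mcart6 counted, 14 carriers were lower and 6 higher. No paired analysis was possible because each genotype is 1 pooled library, and no library could be left out. Depth per gene is unknown, so ratios of members near 1 FPKM are the least certain.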

Other observations

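Some relatives of the mitochondrial carriers stand in the data under symbols that do not begin with Slc25a. Mtch1 and Mtch2 encode carrier-like proteins of the outer membrane, and they did not go the same way: Mtch1 was at 222 FPKM in control heart and 525 FPKM in csMed1-/- heart (log2 ratio 1.24), and Mtch2 was at 122 and 86.3 FPKM (-0.50). Mcart6, an earlier symbol of Slc25a53, was at 0.0302 and 0.148 FPKM, values too low to compare.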
